A study of Mus musculus with 2 samples.

Results

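The genes described here are 9 neuropeptide genes of cortical neurons, Sst, Vip, Npy, Cck, Tac1, Tac2, Crh, Adcyap1 and Cartpt. They were found by gene symbol and are 9 of the 31040 genes in the count matrix. Each encodes a precursor protein that is cut into short peptides, stored in dense-core vesicles and released to act on G protein-coupled receptors of nearby cells. In the cerebral cortex, somatostatin (Sst), vasoactive intestinal peptide (Vip), neuropeptide Y (Npy) and cholecystokinin (Cck) are known as labels of separate kinds of GABAergic interneurons, while Cck is also made by many pyramidal neurons. Tac1 encodes substance P and neurokinin A, Tac2 encodes neurokinin B, Crh encodes corticotropin-releasing hormone, Adcyap1 encodes the peptide PACAP and Cartpt encodes the CART peptide, a transcript first known for its regulation by psychostimulants.

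RNA of single nuclei was sequenced from the prefrontal cortex of male C57BL/6 wild-type mice, 2 months old. The METH group received methamphetamine, a stimulant that raises synaptic dopamine, at 5 mg/kg into the peritoneum, and the Control group received saline by the same route, each over 14 days. Tissue of 3 mice was pooled for each group and gave 1 library. The matrix holds 2 libraries, told apart by the number that ends each barcode, and no label ties a number to METH or Control. The comparison of METH with Control was therefore not made. Values are given for both libraries pooled and for library 1 and library 2 side by side, with no test between them. All intervals are 95% intervals for counting error only.

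A unique molecular identifier (UMI) stands for 1 captured RNA molecule. The 9890 barcodes of library 1 carried 31273163 UMIs and the 10876 barcodes of library 2 carried 35292937, and 154 barcode sequences occurred in both. After filtering, 18002 nuclei were kept with a median of 2978 UMIs. They fell into 36 groups of at least 50 nuclei, 23 of them named by marker genes that exclude every peptide gene and 13 unnamed, which are called by their leading genes. A name means only that the nuclei were like that class. Among the groups were striatal projection neurons, which belong to the basal ganglia, although the labels name the prefrontal cortex alone. A level is the UMIs of a gene over all UMIs of a group, in the usual CPM unit. Levels of different genes are not compared, and fewer nuclei of a kind in a group and less RNA in each cannot be told apart in a level. RNA released from broken cells reaches every droplet, so each level is set beside an estimated free RNA level. A gene is called above free RNA in a group where the lower bound of its count exceeds 2 times that level.

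Of the members, 6 carry in their promoter windows letters of the cAMP response element, the site bound by CREB, through which neuronal activity is known to act on peptide genes. These stretches are shown because the element was searched in all members, and they come from RefSeq windows of 300 bases (GRCm38.p6) that were matched by symbol for 8 of the 9 members, all except Crh. The full element TGACGTCA was found in Sst and Cartpt, 2 of 8, against 1.79% of 32851 promoter windows of the same length. Its first letters TGACG (or CGTCA, the same letters on the other strand), which the full element contains, were found in 6 of 8 against 20.8% of all windows. Stretches are written 5′ to 3′ on the strand of the gene, with the matched letters in capitals. Those of Sst, Cartpt and Tac1 are kept short because GENCODE annotates a longer transcript whose first exon, untranslated there, covers them. The other 3 lie outside the annotated span of their own gene, and overlap with other genes was not checked.
Sst, chr16:23890874-23890903, minus strand: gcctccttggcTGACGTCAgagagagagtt
Cartpt, chr13:99900777-99900806, minus strand: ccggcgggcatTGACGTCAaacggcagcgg
Vip, chr10:5639113-5639169, plus strand: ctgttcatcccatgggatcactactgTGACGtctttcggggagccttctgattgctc
Adcyap1, chr17:93198900-93198956, plus strand: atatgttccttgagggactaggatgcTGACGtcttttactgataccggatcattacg
Cck, chr9:121495711-121495767, minus strand: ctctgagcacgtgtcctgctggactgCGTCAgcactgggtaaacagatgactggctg
Tac1, chr6:7555007-7555033, plus strand: ctctacaggctCGTCAcgcctgagata
The matched letters began 48 bases before the RefSeq start site in Sst, 112 in Cartpt, 79 in Vip, 91 in Adcyap1 (the first of its 2 windows), 47 in Cck and 43 in Tac1, whose window holds a further match 197 bases before it. No match was found in the windows of Npy and Tac2. A match is a description of these letters and says nothing of binding in these nuclei.

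The 9 genes lie on 7 chromosomes, and none overlaps another annotated gene (GENCODE vM21 on GRCm38, the build mm10 of the files). Sst (ENSMUSG00000004366) spans chr16:23889573-23890958, Vip (ENSMUSG00000019772) chr10:5639218-5647617 and Npy (ENSMUSG00000029819) chr6:49822710-49829507. Cck (ENSMUSG00000032532) spans chr9:121489824-121495694, Tac1 (ENSMUSG00000061762) chr6:7554879-7565834 and Tac2 (ENSMUSG00000025400) chr10:127724478-127731768. Crh (ENSMUSG00000049796) spans chr3:19693401-19695396, Adcyap1 (ENSMUSG00000024256) chr17:93199017-93206537 and Cartpt (ENSMUSG00000021647) chr13:99898489-99901091.

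Each member was above free RNA in 2 to 6 of the 36 groups. The same count was not made over all genes, so these numbers have no background beside them. The highest group of a gene is taken among the groups of at least 100 nuclei in which it was above free RNA, and the next group among all groups of that size. For 8 of the 9 the highest group was clear of the next, meaning that the interval of their ratio excluded 1, and Adcyap1 was the exception. Among all 15964 genes with at least 50 UMIs, the highest group was clear of the next for 16.5%. A clear call depends on the number of UMIs, which ran from 493 to 33193 for the members. No share was made for genes of like counts. The highest group reached 2 times the next for 4 of the 9 members (Vip, Tac1, Crh and Cartpt) and for 11.2% of all genes. The highest groups were inhibitory classes for Sst, Npy, Vip, Tac2, Crh and Cck, an unnamed GABAergic group for Tac1 and unnamed glutamatergic groups for Adcyap1 and Cartpt.

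**Figure D1:**
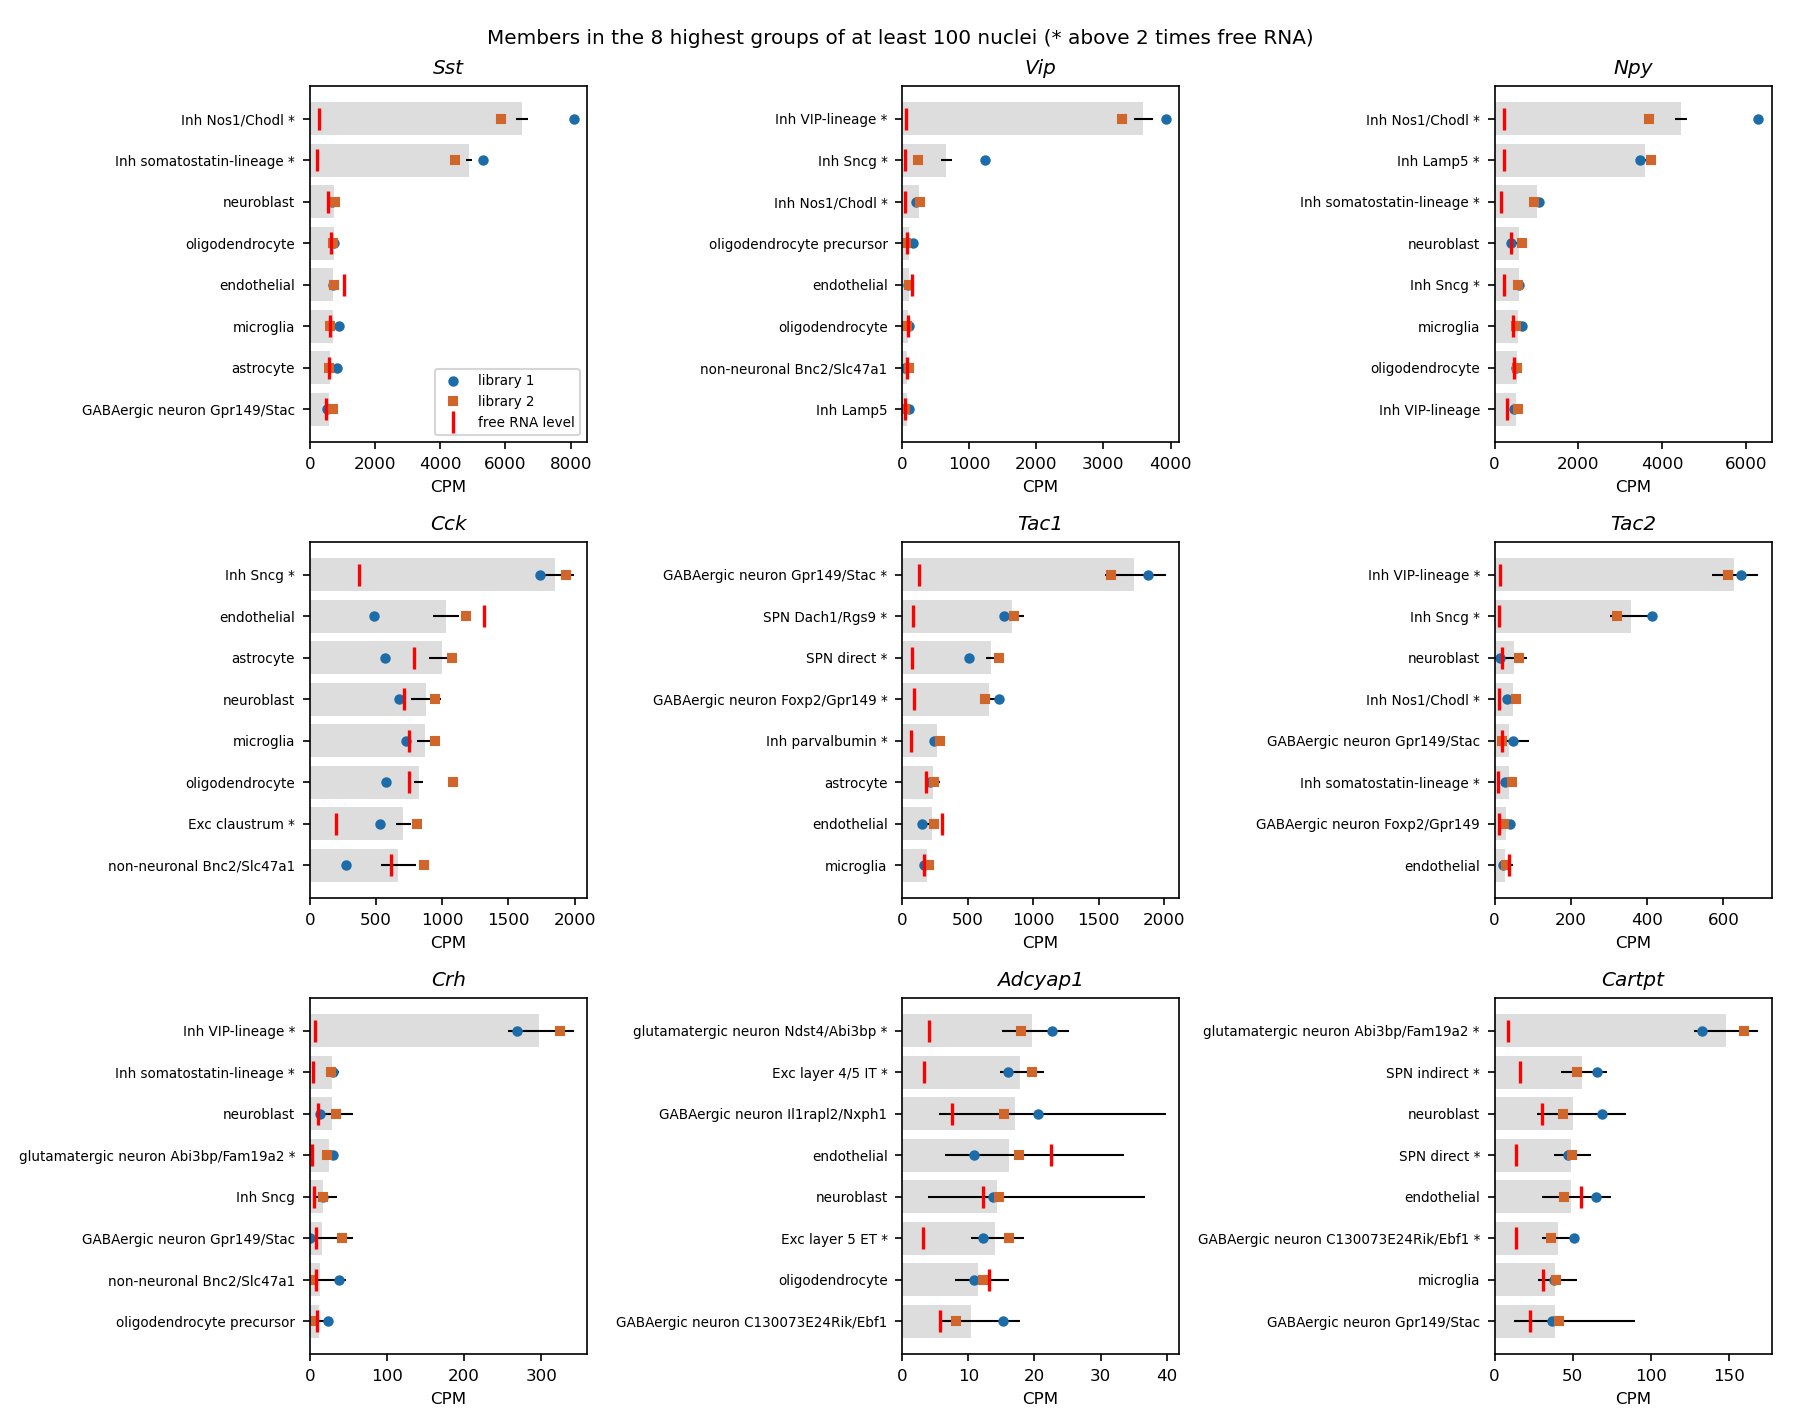
Level of each member (CPM, horizontal axis) in its 8 highest groups of at least 100 nuclei. Bars are both libraries pooled with 95% Poisson intervals (black lines), circles and squares are libraries 1 and 2, red ticks are the free RNA level and a star marks groups above 2 times that level. Sst reaches 6507 CPM in the Nos1/Chodl-like group and Vip 3595 CPM in the VIP-lineage-like group, while glial bars lie near their red ticks.

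Oligodendrocytes, the myelinating glia, held Sst at 732 CPM (701 to 764, 2095 UMIs), against a free RNA level of 656 CPM. Npy stood at 526 CPM, Cck at 824 CPM, Tac1 at 184 CPM and Vip at 90.8 CPM in the same nuclei. None of the 9 members was above free RNA in oligodendrocytes, microglia or astrocytes. Of all Sst UMIs in the groups, 47.6% lay in the 2 groups above free RNA and 28.9% in glutamatergic neurons. For Cck, only 31.8% lay in groups above free RNA.

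**Figure D2:**
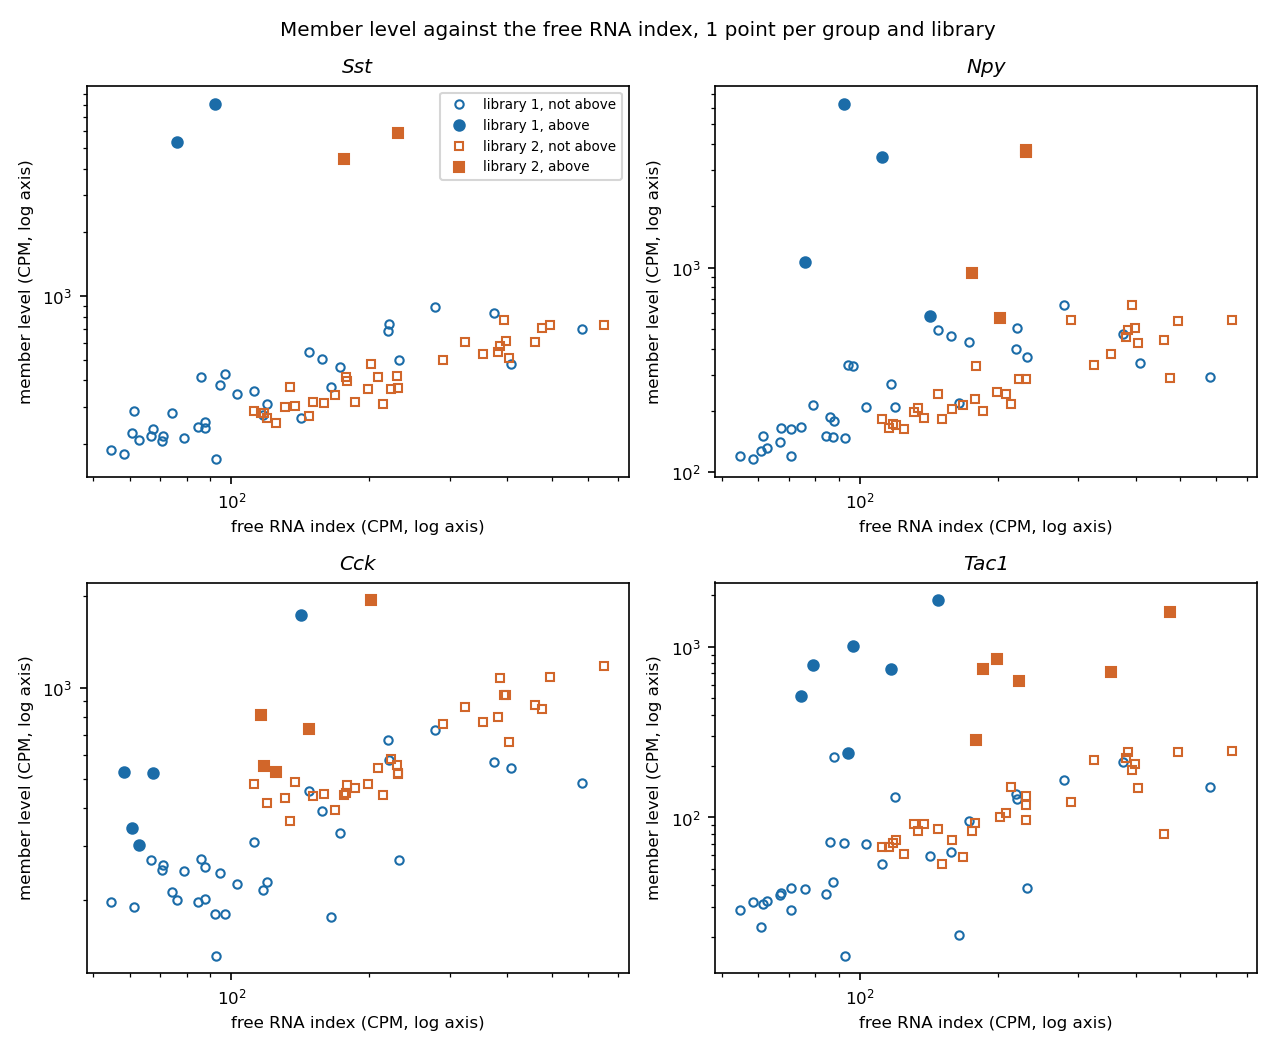
Level of Sst, Npy, Cck and Tac1 (CPM, log axis) against the free RNA index of each group (CPM, log axis), which is the level of Slc17a7 or, in glutamatergic groups, scaled myelin genes. Each point is 1 group in 1 library. Open points, not above free RNA, rise with the index because the rule sets the free RNA level in proportion to it, so their rise is no finding. Filled points such as the Nos1/Chodl-like group for Sst (8089 CPM in library 1 and 5856 CPM in library 2) lie far above them.

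Sst, whose peptide inhibits release from its targets through the Sstr receptors, was above free RNA in 2 groups, both inhibitory. The 192 Nos1/Chodl-like nuclei carry markers of GABAergic neurons that make nitric oxide. Their region of origin was not tested, and the data also hold striatal projection neurons. In these nuclei Sst stood at 6507 CPM (6333 to 6684), with 8089 CPM in library 1 and 5856 CPM in library 2. In the 677 somatostatin-lineage-like nuclei it stood at 4884 CPM (4791 to 4978), with 5321 CPM in library 1 and 4441 CPM in library 2. The ratio between them was 1.33 (1.29 to 1.38), in the same direction in both libraries. The level of the former depended on how the class was drawn: with a minimum of 1000 genes or with doublets kept it held 74 or 73 nuclei, at 14084 CPM and 14813 CPM. Parvalbumin-like nuclei held 389 CPM, within 2 times their free RNA level of 259.6 CPM. Their cluster led by Kcnc2, Erbb4 and Btbd11 held 553 CPM (504 to 605) and their cluster led by Eya4 and Cemip held 312 CPM (287 to 339).

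Npy, a peptide that acts on the receptors Npy1r, Npy2r and Npy5r, was highest in Nos1/Chodl-like nuclei at 4446 CPM (4303 to 4593). Its next group was the 269 Lamp5-like nuclei, which resemble neurogliaform cells, at 3603 CPM (3466 to 3745). The libraries differed in this order. Nos1/Chodl-like nuclei held 6304 CPM in library 1 and 3681 CPM in library 2, while Lamp5-like nuclei held 3464 CPM and 3741 CPM. Under the same alternatives as for Sst, Npy stood at 8597 CPM and 9003 CPM in the smaller Nos1/Chodl-like class. Somatostatin-lineage-like nuclei followed at 1004 CPM (962 to 1047) and Sncg-like nuclei at 573 CPM (502 to 652). VIP-lineage-like nuclei at 508 CPM were not above 2 times free RNA.

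These 2 peptides were uneven within the classes. When the same nuclei were clustered at the higher resolution of 1.6, most Nos1/Chodl-like nuclei fell into 2 clusters. The 74 nuclei led by Nos1, Hhip and Tacr1 held Sst at 14109.8 CPM (13615 to 14618) and Npy at 8595 CPM (8209 to 8994), and libraries 1 and 2 gave Sst levels of 14123 CPM and 14105 CPM. The cluster of 83 nuclei led by Crhbp, Col25a1 and Nos1, 80 of them from the class, has no name at this resolution, since its scores for the Nos1/Chodl and somatostatin-lineage markers were too close. It held Sst at 6153 CPM (5888 to 6428) and Npy at 5018 CPM (4778 to 5266). Chodl, a naming marker of the class, had overlapping intervals in the pair, at 119.7 CPM (78.2 to 175) and 134 CPM (97.6 to 180.3). Library 1 gave 23 of the 74 and 41 of the 83 nuclei, against 51 and 42 from library 2. The class held 68 nuclei of library 1 and 124 of library 2, so more nuclei of library 2 lay outside both clusters. The makeup of the pooled class thus differed between libraries, and its part in the library levels was not tested.

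Somatostatin-lineage-like nuclei split likewise. A cluster of 231 nuclei led by Grik1, Rbp4 and Npas3 held Sst at 7295 CPM (7108 to 7487) and Npy at 1799 CPM (1707 to 1896). A cluster of 307 nuclei led by Grin3a, Nxph1 and Reln held Sst at 3598 CPM (3480.5 to 3719) and Npy at 620.0 CPM (572 to 671). The first of these also held the minor peptides of the class, Crh at 74.0 CPM (56.2 to 95.7) against 4.07 CPM (1.11 to 10.4), and Tac2 at 89.3 CPM (69.6 to 113) against 9.15 CPM (4.18 to 17.4). Cartpt was highest in a further cluster of 135 nuclei led by Grin3a, Trhde and Sox6, at 79.1 CPM (53.0 to 114). Lamp5-like nuclei fell into a cluster led by Pde11a, Fgf13 and Kit with Npy at 4863 CPM (4663 to 5069) and a cluster with Reln and Adarb2 among its leading genes at 1065 CPM (963 to 1174).

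**Figure D3:**
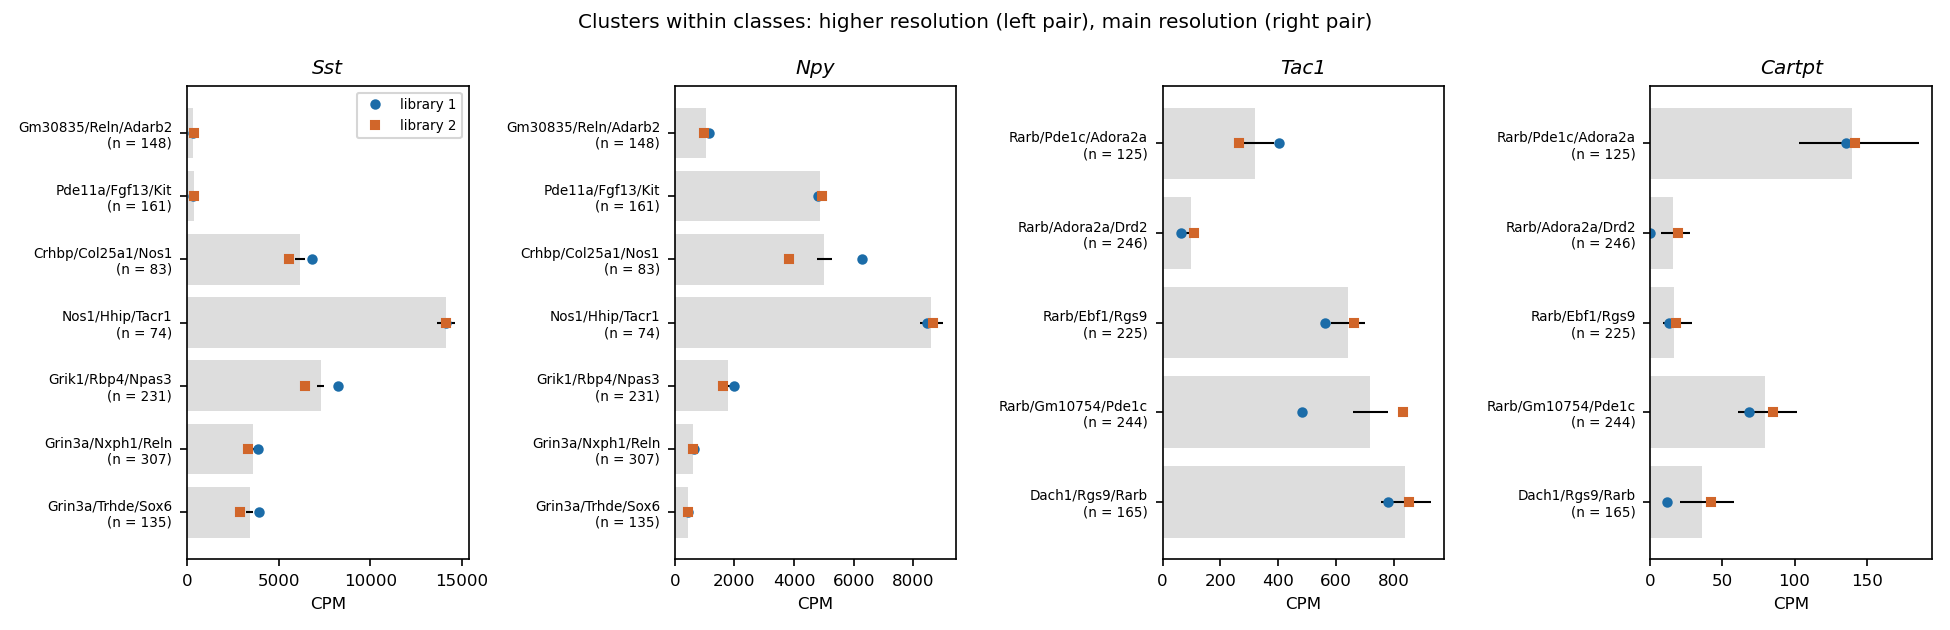
Level (CPM) of Sst and Npy in the higher-resolution clusters of the Lamp5-like, Nos1/Chodl-like and somatostatin-lineage-like classes, and of Tac1 and Cartpt in the clusters of striatal projection neurons (SPN), with leading genes and number of nuclei. Bars are pooled with 95% Poisson intervals, circles and squares are libraries 1 and 2. The cluster led by Nos1, Hhip and Tacr1 stands highest for both Sst (14109.8 CPM) and Npy (8595 CPM).

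Vip, whose neurons are known for contacting other interneurons, was highest in the 324 VIP-lineage-like nuclei at 3595 CPM (3452 to 3743), with 3933 CPM in library 1 and 3282 CPM in library 2. That was 5.47 times the level in the 122 Sncg-like nuclei (4.82 to 6.23), which held 657 CPM (581 to 741). The Sncg-like level rested mostly on library 1, with 1237 CPM from 56 nuclei against 244 CPM from 66 nuclei in library 2. Nos1/Chodl-like nuclei held Vip at 252 CPM (218 to 288), from 13.5% of their nuclei. In the 2 higher-resolution clusters above that hold most of that class Vip stood at 82.9 CPM (49.1 to 131) and 33.6 CPM (16.8 to 60.1), so most of the 206 UMIs lay in other nuclei of the class.

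Tac2 and Crh were highest in the same VIP-lineage-like nuclei. Tac2 stood at 628 CPM (569 to 692), with 647 CPM in library 1 and 611 in library 2, and was 1.75 times the level of Sncg-like nuclei (1.44 to 2.13), which held 359 CPM (303 to 423). It was also above free RNA at 48.9 CPM (34.9 to 66.5) in Nos1/Chodl-like and at 37.8 CPM (30 to 46.9) in somatostatin-lineage-like nuclei. The former level rested on 40 UMIs from 7.29% of the nuclei and the latter on 81 UMIs from 6.20%. Which nuclei of the Nos1/Chodl-like class held Tac2 was not tested. Crh stood at 297 CPM (257 to 342), with 268 CPM in library 1 and 325 CPM in library 2, which was 10.1 times (7.59 to 13.7) the 29.4 CPM (22.6 to 37.6) of somatostatin-lineage-like nuclei. Outside the inhibitory classes Crh was above free RNA only in 402 glutamatergic nuclei led by Abi3bp, Fam19a2 and Lmo3, at 25.4 CPM (17.8 to 35.2).

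Among the named inhibitory classes Cck was above free RNA only in Sncg-like nuclei, and its other groups above free RNA were glutamatergic. Sncg-like nuclei, which carry the markers of Cck basket cells such as Cnr1, held it at 1856 CPM (1726 to 1993), with 1739 CPM in library 1 and 1939 CPM in library 2. The next group by level, endothelial nuclei at 1028 CPM, did not exceed its free RNA level of 1313 CPM. Claustrum-like nuclei held 707 CPM (655 to 763), and a glutamatergic group led by Galnt14, Npsr1 and Sulf1 held 644 CPM (612 to 676). Layer 2/3-like nuclei held 434 CPM (419.7 to 449) and a group led by Il1rapl2 held 434 CPM (414 to 455), which were also above free RNA.

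The libraries differed in Cck. In layer 2/3-like nuclei, which formed 1 cluster for each library, libraries 1 and 2 held 302 CPM and 552 CPM, a ratio of 1.83 (1.70 to 1.97). In oligodendrocytes, where it was not above free RNA, the ratio was 1.87 (1.72 to 2.04), and in Sncg-like nuclei 1.12 (0.961 to 1.3). Tac1 had ratios of 2.21 (1.78 to 2.76) and 1.88 (1.57 to 2.25) in layer 2/3-like nuclei and oligodendrocytes. Sst had 1.34 (1.22 to 1.47) and 0.986 (0.905 to 1.08). The part of free RNA in these ratios was not tested, and treatment and library cannot be told apart.

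Tac1 was above free RNA in 6 groups, none of them glutamatergic. The highest was an unnamed GABAergic group of 113 nuclei led by Gpr149, Stac and Isl1, with the dopamine receptor gene Drd3 among its leading genes. It held 1769.9 CPM (1548 to 2015), and its nuclei had a median of 1085 UMIs. The 75 nuclei of library 1 held 1874 CPM and the 38 of library 2 held 1594 CPM. With a minimum of 1000 genes, the cluster that took most of its remaining nuclei held 813 CPM. Direct-pathway striatal projection neurons, in which Tac1 is a known marker, held 679.9 CPM (639 to 723), with 513 CPM in library 1 and 742 CPM in library 2. A striatal projection neuron cluster led by Dach1 and Rgs9 that matched no pathway held 838 CPM (755 to 927). GABAergic nuclei led by Foxp2 and Gpr149 held 662 CPM (596 to 733), and the 82 nuclei led by Gpr149 and Slco5a1 held 852 CPM (711 to 1012).

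Among the named inhibitory classes Tac1 was above free RNA only in the 756 parvalbumin-like nuclei, the fast-spiking class. They held 263 CPM (244 to 283) against a free RNA level of 65.6 CPM. Library 1 held 239.8 CPM and library 2 held 286 CPM. The cluster led by Kcnc2, Erbb4 and Btbd11 held 407 CPM (365 to 452) and the cluster led by Eya4 and Cemip 195 CPM (175 to 217).

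Cartpt was highest in the glutamatergic nuclei led by Abi3bp, Fam19a2 and Lmo3 that also held Crh, at 148 CPM (128 to 169), with 133 CPM in library 1 and 159.9 CPM in library 2. That was 2.64 times (1.97 to 3.59) the 55.9 CPM (42.6 to 72.1) of indirect-pathway striatal projection neurons. Direct-pathway neurons held 48.9 CPM (38.3 to 61.5). Within both pathways the UMIs came mostly from a cluster with Pde1c among its 3 leading genes, at 140.0 CPM (103 to 186) against 15.4 CPM (7.71 to 27.6) in the indirect and 79.5 CPM (60.8 to 102) against 16.6 CPM (8.55 to 28.9) in the direct pathway. The same indirect-pathway cluster held Tac1 at 318 CPM (261 to 384), against 99.7 CPM (77.9 to 126) in the other.

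Adcyap1 was the sparsest member, with 493 UMIs in all groups. It was above free RNA in 4 glutamatergic groups, at 19.7 CPM (15.1 to 25.3) in nuclei led by Ndst4 and Abi3bp, 17.8 CPM (14.8 to 21.4) in layer 4/5-like intratelencephalic nuclei, 14.0 CPM (10.4 to 18.5) in layer 5 extratelencephalic-like nuclei and 10.3 CPM (7.49 to 13.9) in the group led by Il1rapl2. The ratio of the highest 2 groups was 1.10 (0.799 to 1.52), so their order was not resolved. The low counts limit this gene: in each of the 4 groups between 5.94% and 8.16% of nuclei had a UMI of it.

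Counts in single nuclei were read after each nucleus was thinned to 1000 UMIs, which makes depth equal. Shallower nuclei were left out, 2300 of 3059 oligodendrocytes but 1 of 677 somatostatin-lineage-like and 6 of 324 VIP-lineage-like nuclei. At least 1 Sst UMI was found in 81.7% of somatostatin-lineage-like nuclei (exact binomial interval 78.5 to 84.5%), but also in 42.1% of VIP-lineage-like nuclei (36.6 to 47.8%) and 47.8% of oligodendrocytes (44.2 to 51.4%), so a single UMI does not mark a somatostatin neuron here. Without thinning these shares were 96.8% in somatostatin-lineage-like nuclei and 48.1% in oligodendrocytes, at median depths of 3081 and 811 UMIs.

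At least 5 Sst UMIs were found in 54.2% of Nos1/Chodl-like nuclei (46.8 to 61.4%) and 31.5% of somatostatin-lineage-like nuclei (28.0 to 35.2%). They were found in 0.264% of oligodendrocytes (0.0319 to 0.949%) and in 0 of 318 VIP-lineage-like nuclei, which allows a share of up to 0.943% by the limit of 3 counts (exact binomial upper bound 1.15%). At least 5 Vip UMIs were found in 26.4% of VIP-lineage-like nuclei (21.7 to 31.6%), 4.92% of Sncg-like nuclei (1.83 to 10.4%) and 0 of 676 somatostatin-lineage-like nuclei, which allows up to 0.444% by the same limit (exact upper bound 0.544%). For Npy the shares were 42.7% of Nos1/Chodl-like (35.6 to 50%) and 24.8% of Lamp5-like nuclei (19.7 to 30.5%) but 2.81% of somatostatin-lineage-like nuclei (1.70 to 4.35%). For Cck the share was 11.5% of Sncg-like nuclei (6.42 to 18.5%).

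**Figure D4:**
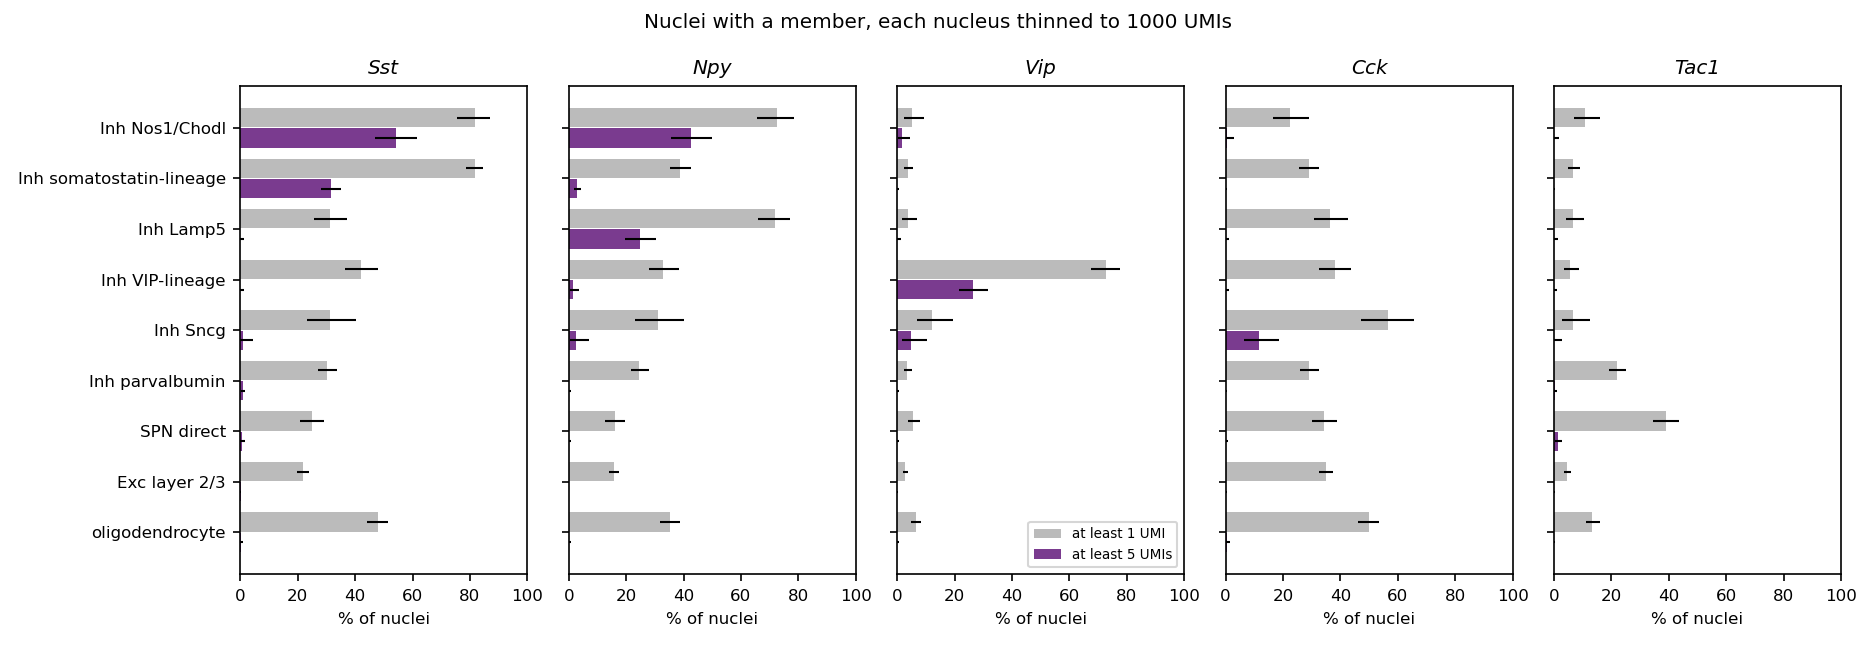
Share of nuclei (%, horizontal axis) with at least 1 UMI (grey) and at least 5 UMIs (purple) of 5 members, each nucleus thinned to 1000 UMIs, in inhibitory classes, direct-pathway striatal projection neurons, layer 2/3-like neurons and oligodendrocytes, with exact binomial 95% intervals. Grey bars are present in every class, with 47.8% of oligodendrocytes for Sst, while purple bars reach 54.2% of Nos1/Chodl-like nuclei for Sst and 0.264% of oligodendrocytes. For Cck, layer 2/3-like nuclei, which are above free RNA, have 0.0635% and oligodendrocytes, which are not, 0.659%.

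Detection of 2 members in the same nucleus was compared within a class at this depth. The rarer member divided the nuclei into those with and without a UMI, and the pair was called co-detected where the interval of the other's share was higher in the former with no overlap. Of 28 combinations of a class and a pair with both members above free RNA, covering 19 different pairs in 7 classes, 6 were co-detected, none was less often together, 17 had overlapping intervals and 5 had too few nuclei. Combinations with too few nuclei, under 10 on either side, are counted in the 28 but left out of the following share. Among 350 combinations in which not both members were above free RNA, 1.71% were co-detected. Those 6 were Tac1 with Sst and with Cck in oligodendrocyte precursors, Tac1 with Npy in oligodendrocytes, Tac1 with Cck in layer 6 corticothalamic-like, Sst with Cck in layer 2/3-like and Adcyap1 with Npy in layer 4/5-like nuclei.

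Npy and Sst were co-detected in both classes where both were above free RNA. In Nos1/Chodl-like nuclei, Sst was found in 96.4% of 139 nuclei with Npy (91.8 to 98.8%) and in 43.4% of 53 nuclei without (29.8 to 57.7%). In somatostatin-lineage-like nuclei the shares were 87.5% of 263 (82.8 to 91.2%) and 78.0% of 413 (73.7 to 81.9%). Without thinning they were 96.5% and 75.0% in the former class and 98.2% and 93.7% in the latter. In each library alone the somatostatin-lineage-like shares were in the same order, 88.6% and 76.8% in library 1 and 86.4% and 79.2% in library 2, with overlapping intervals. Both classes hold clusters that differed in both genes, and some Nos1/Chodl-like nuclei lay outside the 2 clusters described above. The part of such mixture within a class in these contrasts was not tested.

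In VIP-lineage-like nuclei Tac2 was co-detected with Vip and with Crh, the former not when nuclei were thinned to 2000 UMIs. Vip was found in 88.6% of 88 nuclei with Tac2 (80.1 to 94.4%) and in 66.5% of 230 without (60 to 72.6%). Tac2 was found in 55.4% of 56 nuclei with Crh (41.5 to 68.7%) and in 21.8% of 262 without (16.9 to 27.2%). For Crh and Vip the intervals overlapped, at 78.6% (65.6 to 88.4%) and 71.4% (65.5 to 76.8%). In library 1 alone Vip was found in 87.0% of nuclei with Tac2 and 70.3% without, with overlapping intervals, and in library 2 alone in 90.5% and 63.0%, where they did not overlap. Tac2 and Crh likewise had intervals that overlapped in library 1 and did not in library 2.

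Sncg-like nuclei held the last 2 combinations. Cck was found in 90.5% of 21 nuclei with Tac2 (69.6 to 98.8%) and in 49.5% of 101 without (39.4 to 59.6%), and Tac2 in 53.3% of 15 nuclei with Vip (26.6 to 78.7%) and in 12.1% of 107 without (6.63 to 19.9%). This class has 122 nuclei and was under the minimum of 100 in either library alone. Without thinning, Tac2 was found in 44.4% of nuclei with Vip and 16.8% without, and the intervals overlapped, while Cck was found in all 28 nuclei with Tac2 and in 72.3% of those without, where they did not. Cck and Tac2 were not co-detected at 2000 UMIs or with at least 2 UMIs, and Tac2 and Vip not with at least 2 UMIs. Cartpt and Tac1, both made by direct-pathway neurons, showed no difference larger than counting error, since Tac1 was found in 38.5% of 26 nuclei with Cartpt (20.2 to 59.4%) and in 38.9% of 442 without (34.3 to 43.6%).

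**Figure D5:**
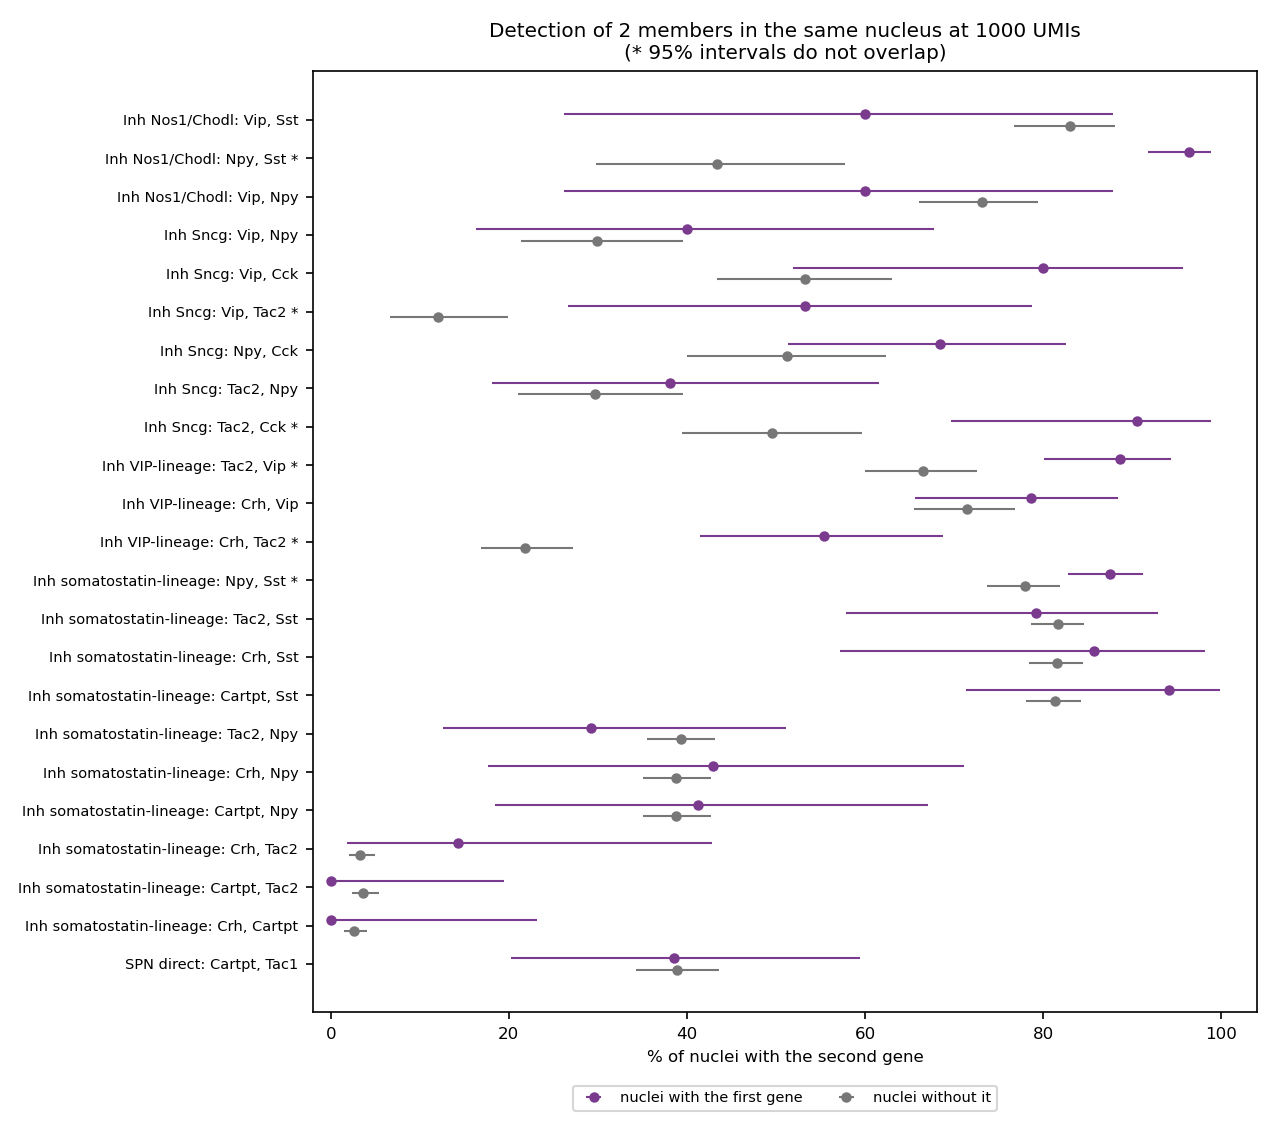
Share of nuclei with the second-named member (%, horizontal axis) among nuclei with (purple) and without (grey) a UMI of the first-named member, for the 23 combinations of class and pair with both members above free RNA and at least 10 nuclei on each side, at 1000 UMIs per nucleus. Lines are exact binomial 95% intervals, and stars mark the 6 combinations whose intervals do not overlap, such as Npy and Sst in Nos1/Chodl-like nuclei (96.4% against 43.4%).

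The receptors of these peptides were measured in the same groups. Of 17 listed receptor genes all were in the matrix, 14 had at least 50 UMIs, 14 were above free RNA in at least 1 group of 100 nuclei and 5 had a clear highest group. Among all genes with at least 50 UMIs 16.5% had a clear highest group. For being above free RNA no share over all genes was made, here or for the lists below. Tacr1, the substance P receptor, was highest in Nos1/Chodl-like nuclei at 231 CPM (199 to 266), but it is a naming marker of that class and so is no finding there. Sstr2, a somatostatin receptor, was highest in claustrum-like nuclei at 148 CPM (124 to 175), which was 4.44 times the next group (3.35 to 5.91). Crhr1, the main receptor of Crh, was highest in layer 4/5-like intratelencephalic nuclei at 109 CPM (101 to 118), 1.89 times the next (1.63 to 2.20).

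Npy1r and Npy5r were highest in the GABAergic nuclei led by Gpr149 and Stac, at 155 CPM (94.4 to 239, 20 UMIs) and 92.7 CPM (47.9 to 162, 12 UMIs), and both had VIP-lineage-like nuclei as the next group. Vipr1 was highest in the glutamatergic group led by Il1rapl2 at 65.5 CPM (57.9 to 73.7) and Cckbr in that led by Galnt14 at 45.9 CPM (37.8 to 55.2), neither clear of the next. For Cckbr the next group was endothelial nuclei at 46.4 CPM (28.3 to 71.7), which did not exceed their free RNA level of 40.7 CPM by 2 times. Adcyap1r1, the PACAP receptor, was highest in astrocytes at 114 CPM (82.8 to 152) and stood at 106 CPM (79.9 to 138) in oligodendrocyte precursors, which do not differ beyond counting error. Npy2r stood at 46.8 CPM (28.2 to 73.0) in Sncg-like nuclei. Sstr4, Sstr5 and Cckar had 16, 12 and 3 UMIs in the groups.

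Genes that process and release peptides were measured likewise. Of 14 listed genes all were above free RNA in at least 1 group of 100 nuclei. A clear highest group was found for 8, against 16.5% of all genes with at least 50 UMIs. Pcsk1n and Crhbp were above it in 3 such groups each and the other 12 in 11 to 27. Pam, the enzyme that amidates peptides such as Npy, substance P and Cck, was highest in Nos1/Chodl-like nuclei at 1911 CPM (1817 to 2008), followed by somatostatin-lineage-like nuclei at 1271 CPM (1223 to 1319), a ratio of 1.5 (1.41 to 1.6). Crhbp, which encodes a protein that binds Crh, was highest in the same class at 296 CPM (259.6 to 335), 2.44 times (2.04 to 2.92) the 121 CPM of somatostatin-lineage-like nuclei, with 561 CPM in library 1 and 186 CPM in library 2. Cpe, which trims the ends of cut peptides, was highest in astrocytes at 2141 CPM (1999.7 to 2290.4). Cadps, which primes dense-core vesicles, was highest in nuclei led by Ndst4 and Abi3bp at 1523 CPM (1481 to 1567).

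Of 12 other neuropeptide genes 11 were above free RNA in at least 1 group and 6 had a clear highest group, each at least 2 times the next. Among all genes with at least 50 UMIs 16.5% had a clear highest group and 11.2% one at least 2 times the next. Penk, the enkephalin precursor, was highest in indirect-pathway neurons at 2773 CPM (2673 to 2875). Cort, which encodes the somatostatin-related peptide cortistatin, was highest in somatostatin-lineage-like nuclei at 229.9 CPM (210.0 to 251), 2.50 times (2.14 to 2.92) parvalbumin-like nuclei. Pthlh stood at 123 CPM (86.3 to 171) in GABAergic nuclei led by Il1rapl2 and Nxph1, and Trh at 106 CPM (72.1 to 151) in the same nuclei.

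The genes whose levels followed a member most closely were ranked by Pearson's r of log2(CPM + 10) over the 23 named groups, a description only, since the groups share libraries and free RNA. Sst was most like Crhbp (0.90), Lhx6 (0.79) and Cort (0.78). Vip was most like Tac2 (0.93), Wnt5a (0.87) and Htr3a (0.86), and Tac2 like Vip (0.93), Htr3a (0.92) and Wnt5a (0.86). Crh was most like Tac2 (0.82), Shisa8 (0.81) and Vip (0.80). Npy was most like Fam46a (0.82), Gm38505 (0.77) and Nos1 (0.76), and Tac1 like Ppp1r1b (0.78), Ckb (0.76) and Mdh1 (0.75). Adcyap1 was most like Bhlhe40 (0.79), Nrn1 (0.77) and Etv1 (0.74), Cck like Cdkn1b (0.87), Yjefn3 (0.81) and Cib1 (0.80), and Cartpt like Tomm20 (0.81), Ndufaf3 (0.80) and Pde1c (0.78). Htr3a and Nos1 are among the naming markers. Nrn1 and Ppp1r1b are listed markers of excitatory and striatal projection neurons, broad lists that could name no cluster.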

How the data were processed

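The deposited values are UMI counts per gene and barcode. Per the submitters' processing notes, Cell Ranger 1.3.0, Seurat 3.1.4 and the genome mm10 were used, and per the file headers the matrix was written by software version 3.1.0. No filter or depth equalisation is stated in the sources used here. Per the labels' protocols, nuclei came from an iodixanol gradient and 10x libraries. The members, gene lists, markers and rules were chosen with earlier results of these data known.

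Of 20766 barcodes, 19551 had at least 500 genes, and doublets called per library with Scrublet (Scanpy 1.11.5; 10.0% of library 1 and 6.19% of library 2) were removed. Nuclei were clustered by Leiden in 2 steps, first all nuclei and then within glutamatergic, GABAergic, striatal projection and other lineages. The settings were 3000 variable genes, 50 principal components, 20 neighbours and resolution 1.0. The members and the 12 other listed neuropeptide genes were left out of the variable genes. Lineages were set by Meg3 of at least 10000 CPM for neurons and by the highest of Gad1 and Gad2, Sv2b or Rgs9. A cluster of at least 50 nuclei was named where at least 3 markers reached 20 CPM and 25% of the highest cluster, the mean relative level was at least 0.3 and 1.25 times the next list, and its 10 leading genes held a marker of its own class and no more of another. Of 185 listed markers 175 were scored, including those of the broad lists that could name no cluster.

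UMIs were summed per group and divided by the group total. Exact Poisson, Clopper-Pearson and conditional intervals were computed in Python 3.11.15 with SciPy 1.17.1, and no p-values were used. As the index of free RNA served Slc17a7 or, in glutamatergic groups, Mobp, Mal and Cldn11 summed and multiplied by the ratio of Slc17a7 to them in other groups (0.491 in library 1 and 0.695 in library 2). A gene's free RNA level was the index times the lowest upper Poisson bound per unit of index over groups of at least 200000 UMIs. It is an upper limit only if free RNA follows the index in every group, which was not tested. Levels within 2 times it, such as Sst in oligodendrocytes at 732 CPM against 656 CPM, are not called above free RNA. A gene that every group makes is counted as free. Nuclei were thinned at random without replacement. Named genes were all members, receptors of the described peptides and the 3 highest levels of each list with at least 50 UMIs, and the 3 genes most like each member among those with at least 200 UMIs. Scripts were tested on simulated data.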

Additional observations from a re-analysis of the deposited data

How the results depend on the processing

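The number of members with a clear highest group was 8 and ran from 6 to 8 over the alternatives: a minimum of 1000 genes (7), doublets kept (8), peptides allowed among the variable genes (8), lower and higher resolution (7 and 6), free RNA subtracted (8), library 1 or 2 alone (7 and 6) and, chosen after the data were seen, any level above free RNA (8). Adcyap1 was not clear in any of them. Cck was not clear at either other resolution or in either library alone, Npy in library 2 alone, Tac1 at 1000 genes and Cartpt at the higher resolution. With a minimum of 1000 genes or with doublets kept, the cluster named Nos1/Chodl was smaller than 100 nuclei and held Sst at 14084 CPM and 14813 CPM and Npy at 8597 CPM and 9003 CPM, and the highest group of at least 100 nuclei was somatostatin-lineage-like for Sst and Lamp5-like for Npy. The same 2 groups were the highest of that size in library 1 alone. The 68 Nos1/Chodl-like nuclei there, left out by size, held Sst at 8089 CPM and Npy at 6304 CPM. At the higher resolution the highest of that size were somatostatin-lineage-like nuclei for Sst and the cluster led by Pde11a for Npy. The clusters of 74 and 83 nuclei that hold most Nos1/Chodl-like nuclei were again left out by size. Tac1 stood at 813 CPM in its matched group at 1000 genes, and in library 1 or 2 alone, where its highest group had under 100 nuclei, the highest larger groups were striatal projection neurons. Of 36 member levels at an alternative, 25 stayed within their counting interval.

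The 6 co-detected of 28 combinations became 4 of 28 at 2000 UMIs (Cck with Tac2 in Sncg-like and Tac2 with Vip in VIP-lineage-like nuclei were lost) and 4 of 28 with at least 2 UMIs (both Sncg-like combinations were lost). They became 7 of 28 without thinning, 5 of them among the 6. Those added were Tac2 with Vip in Nos1/Chodl-like nuclei and Cartpt with Crh in glutamatergic nuclei led by Abi3bp and Fam19a2. With doublets kept they became 5 of 23, where 5 of the 6 could be compared. With any level above free RNA there were 8 of 240, and the added 2 are among the 6 that did not have both members above 2 times free RNA. They fell to 0 of 16 in library 1 alone, where 3 of the 6 could be compared, and to 3 of 22 in library 2 alone, where 4 could be. VIP-lineage-like nuclei were about as many in both (161 and 163), and the cause was not tested. No paired analysis was possible because no barcodes are tied to a group and no test was made. Depth limits Adcyap1, Crh and Cartpt most, with 493, 514 and 1188 UMIs in all groups.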
